A study of Homo sapiens with 8 samples.

Results

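The fatty acid synthesis and desaturation enzymes described here were 10 genes, ACLY, ACSS2, ACACA, FASN, ME1, ELOVL5, ELOVL6, SCD, FADS1 and FADS2. They were chosen by symbol, and each matched 1 Ensembl identifier in the tables of both cell lines, so that 10 of the 27776 genes listed in either table were followed. RNA was sequenced from 769-P and CAKI-1 cells, both established lines labelled as clear cell renal cell carcinoma (RCC), cultured for 16 hours without or with branched-chain amino acids (BCAA). The BCAA groups received valine at 0.17 mM and isoleucine and leucine at 0.38 mM each, and the no BCAA groups received none of the 3. Per the labels, 769-P cells were grown in RPMI 1640 and CAKI-1 cells in MEM, both with serum. The study's methods describe a depleted medium made from RPMI powder free of amino acids with dialyzed serum, and do not state which other amino acids were returned to it. Each group held 2 libraries, 8 in all. No label says that the 2 were separate cultures, so p-values measure the spread between these libraries, which may be technical.

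Cells make fatty acids from acetyl-CoA in the cytosol. ACLY cleaves exported citrate to acetyl-CoA and ACSS2 makes it from acetate, ACACA carboxylates it to malonyl-CoA, and FASN assembles palmitate from both with NADPH, which malic enzyme (ME1) helps supply. ELOVL enzymes lengthen the chain, SCD places the first double bond in saturated chains, and FADS1 and FADS2 desaturate polyunsaturated chains. Many of these genes are known targets of the SREBP transcription factors, which also drive cholesterol synthesis, and lipid storage is a hallmark of clear cell RCC.

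BCAA raised 7 of the 10 enzymes in 769-P and 5 of 10 in CAKI-1, and 0 were called lower in either line. SCD rose most, 2.96-fold in 769-P and 2.44-fold in CAKI-1. FASN, SCD, FADS1 and FADS2 rose in both lines, ACSS2, ELOVL5 and ELOVL6 in 769-P, and ACLY in CAKI-1. A gene was called when limma gave a Benjamini-Hochberg adjusted p under 0.05 over all genes tested in that line, on log2(value + 1). In 769-P, 20.3% of the 22391 genes tested were called higher and 18.2% lower, and in CAKI-1 10.8% of 21347 were called higher and 9.05% lower. The median log2 fold change of the 10 enzymes was 0.68 in 769-P and 0.43 in CAKI-1, beside -0.02 and -0.01 over all genes tested. ACACA, which had few reads in both lines, is included in these counts and medians. Among the 9 others the middle value was that of FADS1 in 769-P (0.78) and of ACLY in CAKI-1 (0.33). Of the 10, 0 had an unadjusted p under 0.05 and a lower value with BCAA in 769-P and 1, ELOVL5, in CAKI-1. Over all genes tested, 10162 in 769-P and 6714 in CAKI-1 had such a p in either direction. edgeR and DESeq2 on the recovered reads called 8 higher in 769-P, 5 in CAKI-1 and 0 lower in either. In bulk RNA, fewer cells holding a transcript and less of it per cell cannot be told apart.

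A value is a normalised read count, the reads counted for a gene divided by a size factor for the library. The libraries held between 39062721 and 64256834 reads on listed genes in 769-P and between 30979773 and 47054568 in CAKI-1. In 769-P both libraries with BCAA were deeper than both without. With the reads of every library thinned to 30979773, the calls numbered 7 and 5 again, and the log2 fold changes in 769-P moved by at most 0.081 for the 9 enzymes other than ACACA, which went to 0.11. Leaving out 1 library of CAKI-1 left 0 of the enzymes called, whichever of the 4 it was, and 0 of all genes tested (21100 to 21339). The same fits gave 5 to 6 enzymes an unadjusted p under 0.05 with higher values, and 4235 to 5687 genes one in either direction. In 769-P fewer of the enzymes were called with 1 library left out, as were fewer of all genes tested. The median log2 fold change of the enzymes was 0.57 to 0.75 in these 769-P fits. With groups of 2, the smallest p of an exact permutation test is 0.333 (two-sided), so the calls rest on the spread that limma shares across genes.

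The lines were checked against marker genes. PAX8, a kidney lineage factor, lay between 8700 and 23271 in the 8 libraries, and vimentin and keratin 8 were also abundant. NDUFA4L2 stayed at 2.57 or less in 769-P. PAX2 was listed for 769-P only, and CA9 for neither line. The summed values of the renal marker list (7 of 8 genes listed in 769-P, 6 of 8 in CAKI-1) were 128389 to 132286 with BCAA and 136897 to 139269 without in 769-P. In CAKI-1 they were 79607 to 82854 with BCAA and 117078 to 121194 without, with 4 of 6 genes called lower, VIM (-0.65) and MME (-2.16) among them, 0 higher and a median log2 fold change of -0.46. In 769-P 2 of 7 were called higher and 1, PAX8 (-0.64), lower. The part of this in the values below was not tested. Of 8 markers of other cell types, 6 were listed in 769-P and 4 in CAKI-1. Their summed values were 174 to 175 with BCAA and 48.4 to 55.0 without in 769-P, and 1171 to 1614 with and 918 to 921 without in CAKI-1. PDGFRB was the most abundant of them in every library. Without it the sums were 22.7 to 23.1 with BCAA and 6.12 to 14.9 without in 769-P, and at most 6.81 in CAKI-1. PDGFRB rose with BCAA in both lines (log2 fold changes of 1.88 and 0.58, limma adjusted p = 8.4e-05 and 0.0064), and its part in the values below was not tested. PTPRC, CD68, ALB and AFP, which mark leukocytes, macrophages and liver, lay at 9.41 or less wherever they were listed. Exons of other genes cover 88.6% of the exonic bases of CD68, so its low count is a weak guide to its expression.

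**Figure D1:**
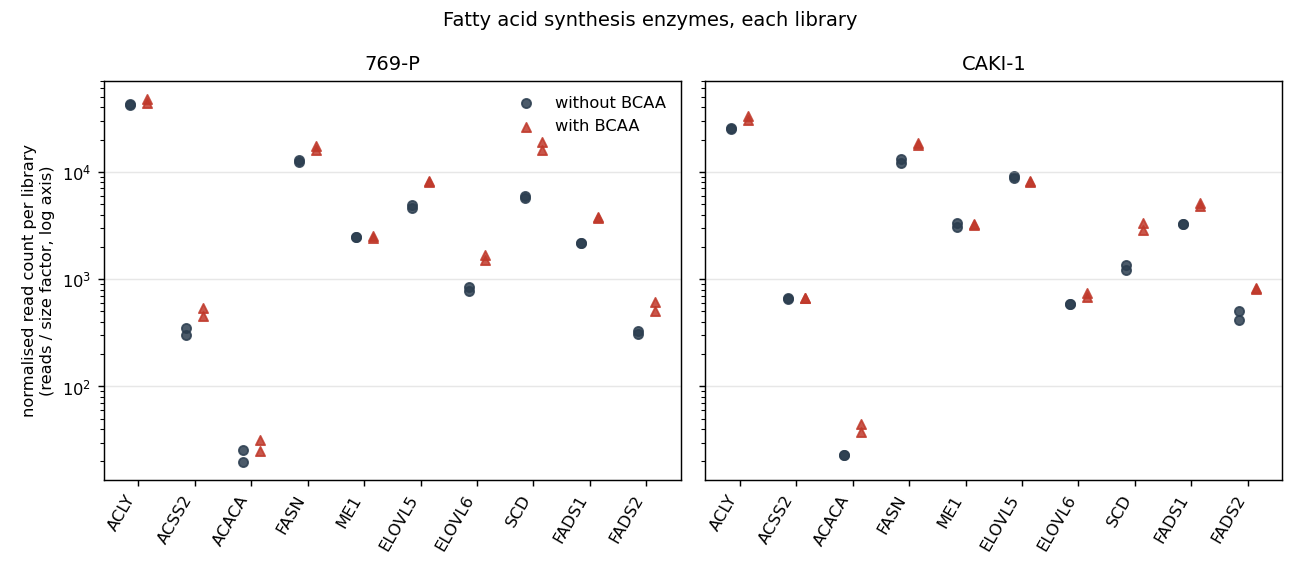
Normalised read count of each enzyme in each library, on a log axis, for 769-P (left) and CAKI-1 (right). Circles are the 2 libraries without BCAA and triangles the 2 with BCAA. SCD shows the widest gap between the groups in both lines, ME1 shows none, and ACACA lies far below the other 9 enzymes.

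The 4 promoters printed here belong to SCD, whose rise was the largest of the 10 in 769-P and in CAKI-1, FADS1, which rose in both, and ELOVL5 and ELOVL6, whose BCAA effect differed between the lines. Each window is taken from RefSeq (GRCh38.p14), runs from 250 bases before to 50 bases after the annotated start, and is written 5′ to 3′ along the gene's strand. Capitals mark NF-Y boxes (CCAAT, or ATTGG on the other strand) and SP1 boxes (GGGCGG, or CCGCCC on the other strand), 2 motifs that flank sterol response elements in many SREBP target promoters.
SCD, chr10:100346983-100347282, plus strand: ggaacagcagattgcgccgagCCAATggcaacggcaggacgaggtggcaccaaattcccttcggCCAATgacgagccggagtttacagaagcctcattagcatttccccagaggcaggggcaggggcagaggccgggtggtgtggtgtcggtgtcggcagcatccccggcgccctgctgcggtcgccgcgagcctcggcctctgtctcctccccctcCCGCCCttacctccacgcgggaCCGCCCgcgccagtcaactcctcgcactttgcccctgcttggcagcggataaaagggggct
FADS1, chr11:61816954-61817253, minus strand: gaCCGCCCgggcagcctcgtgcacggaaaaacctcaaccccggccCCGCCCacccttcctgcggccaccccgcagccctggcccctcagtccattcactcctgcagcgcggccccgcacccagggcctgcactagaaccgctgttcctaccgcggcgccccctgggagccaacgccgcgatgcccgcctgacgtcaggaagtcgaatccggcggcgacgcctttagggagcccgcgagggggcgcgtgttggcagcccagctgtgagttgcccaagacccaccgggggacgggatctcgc
ELOVL5, chr6:53348901-53349200, minus strand: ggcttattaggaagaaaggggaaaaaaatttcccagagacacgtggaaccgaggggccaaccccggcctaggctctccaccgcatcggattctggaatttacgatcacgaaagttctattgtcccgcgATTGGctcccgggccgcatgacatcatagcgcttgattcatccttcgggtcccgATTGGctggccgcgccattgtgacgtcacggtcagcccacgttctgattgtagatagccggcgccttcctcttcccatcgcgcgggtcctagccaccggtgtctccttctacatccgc
ELOVL6, chr4:110198566-110198865, minus strand: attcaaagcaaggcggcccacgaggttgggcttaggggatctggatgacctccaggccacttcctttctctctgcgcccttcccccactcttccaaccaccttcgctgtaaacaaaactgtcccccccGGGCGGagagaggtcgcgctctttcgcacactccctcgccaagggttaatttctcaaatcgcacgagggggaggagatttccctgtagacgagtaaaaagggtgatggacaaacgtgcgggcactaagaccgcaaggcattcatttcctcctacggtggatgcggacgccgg

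In the SCD window the NF-Y boxes began 229 and 186 bases before the start and the SP1 boxes 33 and 11 bases before it. The ELOVL5 window held 2 NF-Y boxes, at 122 and 68 bases, and 0 SP1 boxes, and the ELOVL6 window held 1 SP1 box at 122 bases and 0 NF-Y boxes. The FADS1 window held 2 SP1 boxes, at 248 and 205 bases. Windows were given for 9 of the 10 enzymes, 14 windows in all. FASN had no entry. An NF-Y box was in 8 of the 14 windows (57.1%) and an SP1 box in 11 (78.6%), while 34.6% and 45.0% of all 35116 windows of the same length held them. Windows of the same gene can overlap. The sterol response element searched (TCACNCCAC, or GTGGNGTGA on the other strand) was in 0 of the 14 windows and in 1.13% of all windows. These are matches of letters within 300 bases, and say nothing of which factor binds there.

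SCD (ENSG00000099194, chr10:100347124-100364834, GRCh38, plus strand), the stearoyl-CoA desaturase that makes oleate, led the response in both lines. In 769-P its normalised read counts were 15823 and 18879 with BCAA and 5684 and 5993 without, and the groups did not overlap. The log2 fold change was 1.57 ± 0.07 (SE, n = 2 per group, limma adjusted p = 6.5e-09), which ranked 840 of the 22391 genes tested by size of rise. In CAKI-1 they were 2893 and 3343 with BCAA and 1346 and 1206 without, also apart. Its log2 fold change was 1.29 ± 0.09 (adjusted p = 2.8e-06), ranked 765 of 21347. The difference of the effect between the lines was 0.28 (95% confidence interval 0.01 to 0.54, limma interaction adjusted p = 0.13), so that a difference was not called. With 1 of the 8 libraries left out it ranged from 0.15 to 0.41, and was called without 769-P BCAA replicate 1 (0.41, adjusted p = 0.039) or CAKI-1 BCAA replicate 2 (0.38, adjusted p = 0.041).

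FADS1 (ENSG00000149485, chr11:61799625-61829318, minus strand) and FADS2 (ENSG00000134824, chr11:61792980-61867354, plus strand) encode the delta-5 and delta-6 desaturases and overlap on opposite strands. The starts of the first RefSeq window of each gene lie 800 bases apart, and another FADS2 window (chr11:61816154-61816453) starts nearer to FADS1. FADS1 was counted at 3683 and 3804 with BCAA and 2184 and 2190 without in 769-P, and at 4841 and 5142 with and 3236 and 3285 without in CAKI-1. FADS2 was counted at 507 and 609 with BCAA and 309 and 330 without in 769-P, and at 806 and 819 with and 507 and 421 without in CAKI-1. In each line the groups were apart for both genes. The log2 fold change of FADS1 was 0.78 ± 0.05 in 769-P (limma adjusted p = 2.5e-07) and 0.61 ± 0.06 in CAKI-1 (4.8e-05). That of FADS2 was 0.80 ± 0.12 (1.6e-04) and 0.81 ± 0.11 (3.7e-04). The difference between the lines was 0.16 for FADS1 (-0.00 to 0.33, adjusted p = 0.16) and -0.02 for FADS2 (-0.38 to 0.35, adjusted p = 0.96). Exons of other genes cover 5.57% of the exonic bases of FADS1 and 4.89% of those of FADS2, and the strand setting of the counting is not given in the sources used here, so reads of these stretches cannot be assigned to 1 of the overlapping genes. Without either no BCAA library or without BCAA replicate 2, FADS2 was not called in 769-P (adjusted p up to 0.071).

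**Figure D2:**
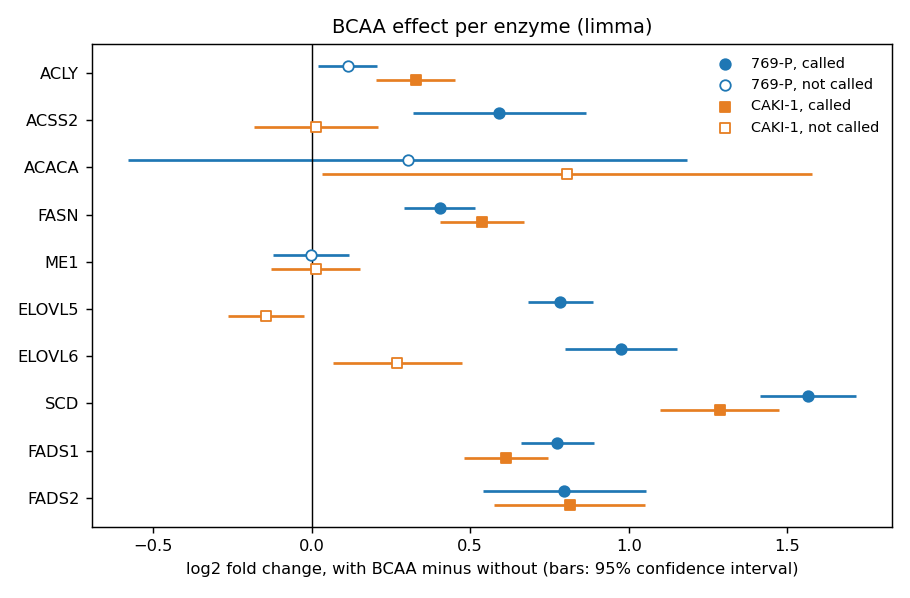
Log2 fold change of each enzyme with BCAA minus without, for 769-P (circles) and CAKI-1 (squares), with 95% confidence intervals as bars. Filled points were called at a limma adjusted p under 0.05. The 3 desaturases are filled in both lines, both elongases in 769-P alone, and the ME1 points lie at 0.

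Among the 10 enzymes, the elongases ELOVL5 and ELOVL6 separated the lines. ELOVL5 (ENSG00000012660, chr6:53267398-53349179, minus strand), which lengthens polyunsaturated chains, was counted at 8133 and 8193 with BCAA and 4860 and 4619 without in 769-P. Its log2 fold change there was 0.78 ± 0.05 (limma adjusted p = 8e-08). In CAKI-1 the order was turned, with 8123 and 8158 with BCAA and 9206 and 8806 without, a log2 fold change of -0.15 ± 0.05 that did not pass the test (adjusted p = 0.09). The difference of the effect was 0.93 (0.78 to 1.08, limma interaction adjusted p = 7e-07), the largest of the 10, and it was called without each of the 8 libraries in turn.

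ELOVL6 (ENSG00000170522, chr4:110045846-110199199, minus strand) lengthens palmitate to stearate, the substrate of SCD. In 769-P it was counted at 1493 and 1674 with BCAA and 770 and 839 without, a log2 fold change of 0.98 ± 0.08 (limma adjusted p = 1.4e-06), second to SCD among the enzymes. In CAKI-1 it was counted at 683 and 736 with and 584 and 592 without, with no overlap but a log2 fold change of 0.27 ± 0.09 (adjusted p = 0.065). The effect differed between the lines by 0.71 (0.44 to 0.97, interaction adjusted p = 0.0011), also without each library in turn.

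Of the 10 enzymes, 3 had a larger effect in 769-P (ACSS2, ELOVL5 and ELOVL6) and 1 a smaller one (ACLY), where 10.9% of 19406 genes tested in both lines were called further up in 769-P and 10.1% further down. The median difference was 0.07 for the 10 enzymes, ACACA with its few reads included, and 0.01 for all genes. Without ACACA the middle value was that of FADS1 (0.16). For the desaturases 0 of 3 differences were called. At an unadjusted p under 0.05, 4 of the 10 were further up in 769-P, namely those 3 and SCD, and 1, ACLY, was further down. Of the 19406 genes tested in both lines, 6302 had such a p in either direction.

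**Figure D3:**
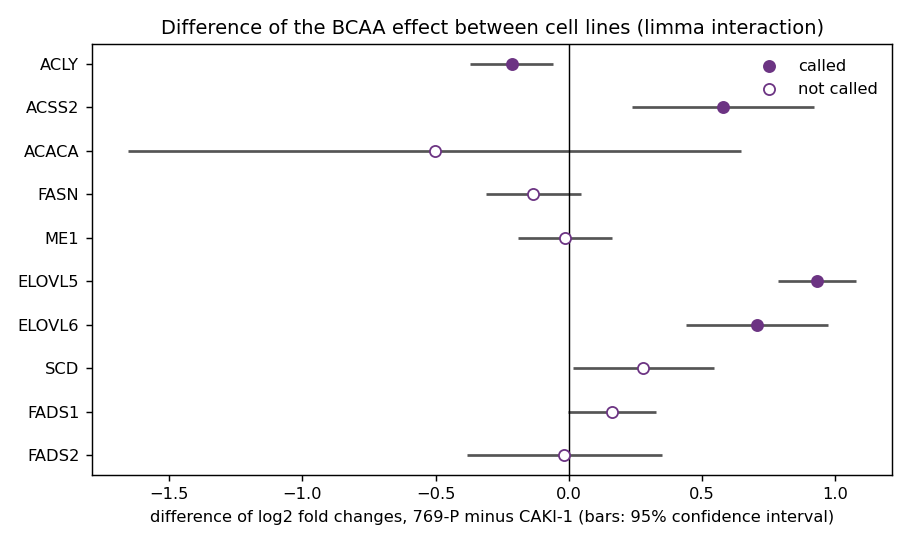
Difference between the lines of the log2 fold change with BCAA, 769-P minus CAKI-1, from the limma interaction term, with 95% confidence intervals as bars. Filled points were called at an adjusted p under 0.05. ELOVL5 and ELOVL6 lie farthest to the right at 0.93 and 0.71, and ACLY at -0.22 is the only filled point below 0.

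FASN (ENSG00000169710, chr17:82078333-82098332, minus strand), the palmitate synthase, rose in both lines by less than the desaturases. It was counted at 17595 and 15942 with BCAA and 12378 and 12949 without in 769-P, and at 18690 and 17695 with and 12039 and 13050 without in CAKI-1. These are log2 fold changes of 0.40 ± 0.05 (limma adjusted p = 4.7e-05) and 0.54 ± 0.06 (1.2e-04). The difference was -0.13 (-0.31 to 0.04, adjusted p = 0.29). The FASN call in 769-P was lost without BCAA replicate 1 or either no BCAA library (adjusted p up to 0.080).

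ACACA (ENSG00000278540, chr17:37084988-37406818, minus strand), which makes the malonyl-CoA that FASN uses, was scarcely counted in these tables. It had 42 and 29 reads with BCAA and 16 and 21 without in 769-P, and 46 and 45 with and 24 and 18 without in CAKI-1. Its log2 fold changes of 0.30 ± 0.40 (limma adjusted p = 0.61) and 0.81 ± 0.35 (adjusted p = 0.14) had intervals of -0.58 to 1.18 and 0.03 to 1.58. Both intervals hold the value of FADS1 in the same line, so a rise of that size was not excluded in either line. In 769-P the interval also held falls, and the normalised read counts of the groups overlapped. In CAKI-1 the interval held rises alone and the groups were apart, but the rise was not called. Genes around it were also low. Of 32 protein-coding genes within 1 Mb on either side, a window chosen after the ACACA values were seen, 4 in 769-P (12.5%) and 3 in CAKI-1 (9.38%) had a mean of at least 100 reads, beside 53.3% and 53.4% of all 19940 protein-coding genes. SYNRG, a broadly expressed trafficking gene near ACACA, had a mean of 2.25 and 1.75 reads. The cause of the low counts in this interval was not tested, and the ACACA values are not read here as its expression level.

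Both enzymes that supply acetyl-CoA were called in 1 line each. ACLY (ENSG00000131473, chr17:41866908-41930542, minus strand) was the most abundant of the 10, at 47611 and 44266 with BCAA and 41889 and 43038 without in 769-P, and at 32935 and 30595 with and 25486 and 25093 without in CAKI-1. Its log2 fold change was 0.11 ± 0.04 in 769-P (limma adjusted p = 0.057) and 0.33 ± 0.06 in CAKI-1 (adjusted p = 0.0020). The value in 769-P passed the test under 5 of 14 alternative settings, edgeR and DESeq2 among them (adjusted p from 0.0086 to 0.14 over the 14). The difference of -0.22 (-0.37 to -0.06, adjusted p = 0.049) lay at the threshold, and was called under 3 of 13 alternative settings and, of the 8 libraries left out in turn, without 769-P BCAA replicate 1 or CAKI-1 BCAA replicate 2. A gene on the other strand covers 2.99% of its exonic bases.

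ACSS2 (ENSG00000131069, chr20:34872146-34927962, plus strand) behaved otherwise. In 769-P it was counted at 449 and 536 with BCAA and 349 and 303 without, a log2 fold change of 0.59 ± 0.12 (limma adjusted p = 0.0023) that was not called without any 1 library (0.079 to 0.17). In CAKI-1 the 4 values lay between 650 and 662 (log2 fold change 0.01, interval -0.18 to 0.21, adjusted p = 0.94). The effect differed by 0.58 (0.24 to 0.92, adjusted p = 0.019), a call lost without replicate 2 of either 769-P group or CAKI-1 no BCAA replicate 1 (adjusted p = 0.099, 0.080 and 0.058).

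ME1 (ENSG00000065833, chr6:83210389-83431071, minus strand), the cytosolic malic enzyme, was the flattest of the 10. It was counted at 2514 and 2420 with BCAA and 2458 and 2485 without in 769-P, and at 3283 and 3166 with and 3308 and 3088 without in CAKI-1, with overlapping groups in both. The log2 fold changes were -0.0028 (-0.12 to 0.12, limma adjusted p = 0.98) and 0.01 (-0.13 to 0.15, adjusted p = 0.92), so the intervals held no rise of the size of that of FASN.

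Divided by exonic length, the order of the enzymes differed between the conditions for SCD, FASN and ELOVL5 in 769-P and for SCD and FADS1 in CAKI-1. In 769-P without BCAA the normalised read count per kilobase was highest for ACLY (8139), followed by FASN (1352), ELOVL5 (1243), SCD (1089), ME1 (733), FADS1 (214), ELOVL6 (110), ACSS2 (60.6), FADS2 (28.1 and 29.9 in its 2 libraries) and ACACA (1.75). With BCAA, SCD at 3236 stood second and FASN at 1791 came after ELOVL5 at 2141. In CAKI-1, ELOVL5 stood second in both conditions (2135 with BCAA and 2362 without), and SCD passed FADS1, from 238 to 582 where FADS1 went from 319 to 488. In every group the values of neighbours in the order did not overlap between their 2 libraries, but 2 libraries are too few for a test of rank. Levels were ordered within a table only, since the tables were normalised separately, and the length used was that of all annotated exons, not of the isoforms present.

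The genes most like the 10 enzymes were found by the Pearson correlation over the 8 libraries of log2 values, centred within each table, with the mean of the enzymes, among the 10872 genes whose mean reached 100 in both tables. The 5 highest were GPI (0.999), KNSTRN, SPC24, SNRNP25 and ACSL3 (0.998 each). GPI is a glycolytic enzyme, KNSTRN and SPC24 serve the spindle and kinetochore, SNRNP25 is a spliceosome subunit and ACSL3 activates long-chain fatty acids. Of the enzymes themselves, FADS1 (0.994) and SCD (0.993) followed the mean most closely and ME1 (0.082) least. Each enzyme was part of the mean it was compared with, so its value is partly built in. The 8 points share 2 tables and 1 treatment, so these values describe a common step with BCAA and carry no p.

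Regulators of the pathway were set beside the enzymes. Of 14 SREBP and lipogenic regulators tested, 5 rose and 3 fell in 769-P, and 2 rose and 0 fell in CAKI-1 (median log2 fold changes of 0.06 and -0.07). These shares, 35.7% higher and 21.4% lower in 769-P and 14.3% higher in CAKI-1, stand beside 20.3%, 18.2% and 10.8% of all genes tested, so the falls and the CAKI-1 rises are near the background. SREBF2, the SREBP best known for cholesterol genes, rose in both lines, with values of 8368 and 8336 with BCAA against 5093 and 5348 without in 769-P (log2 fold change 0.68, limma adjusted p = 2.5e-07) and 2948 and 3049 against 2536 and 2383 in CAKI-1 (0.29, adjusted p = 0.0092). SREBF1, the lipogenic SREBP, had values of 5514 and 5782 with BCAA and 4089 and 4132 without in 769-P (0.46, adjusted p = 1.1e-05). In CAKI-1 it had 1398 and 1860 with and 1282 and 1347 without, which did not pass (0.29, adjusted p = 0.095). That value was 0.50 without BCAA replicate 1 and 0.089 without BCAA replicate 2, and 3 of 14 alternative settings called it (adjusted p from 0.041 to 0.31). INSIG1, an SREBP target whose protein holds SREBP in the endoplasmic reticulum, was apart between the lines. It went from 1407 and 1285 to 3457 and 3938 with BCAA in 769-P (1.46, adjusted p = 1.9e-08) and had 6421 and 6396 without and 6639 and 7198 with in CAKI-1 (0.11, adjusted p = 0.24), and the difference of 1.35 was called (adjusted p = 7e-07). NR1H3, the oxysterol receptor LXR alpha, rose in 769-P (0.70, adjusted p = 0.0015), where INSIG2 (-0.25), MBTPS1 (-0.17) and MID1IP1 (-0.39), an activator of acetyl-CoA carboxylase, fell. MLXIP, a glucose-sensing factor, rose in both lines (0.34 in 769-P and 0.37 in CAKI-1, adjusted p = 6.1e-05 and 0.0019).

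Relatives and partners of the enzymes moved unevenly. Of the other elongation, desaturation and activation enzymes, 8 of 17 rose and 3 fell in 769-P, and 6 of 18 rose and 0 fell in CAKI-1 (medians 0.44 and 0.25). These are 47.1% higher and 17.6% lower in 769-P and 33.3% higher in CAKI-1. They stand beside 20.3%, 18.2% and 10.8% of all genes tested, so the share of falls in 769-P is near the background. SCD5, the second stearoyl-CoA desaturase, had 873 and 942 with BCAA and 442 and 487 without in 769-P (0.97, limma adjusted p = 4.4e-06) and 125 and 162 with and 97.9 and 84.9 without in CAKI-1 (0.64, adjusted p = 0.054). FADS3, beside FADS1 and FADS2 on chromosome 11, went the other way in 769-P, with 2416 and 2322 with BCAA and 4135 and 4034 without (-0.79, adjusted p = 2.2e-07). In CAKI-1 its values overlapped (-0.10, adjusted p = 0.51), and the effects of the lines differed by -0.69 (adjusted p = 6.4e-04). ACACB, the mitochondrial acetyl-CoA carboxylase, had 98.6 and 74.4 with BCAA and 50.9 and 46.5 without in 769-P (0.80, adjusted p = 0.033). That call was kept under 9 of 14 alternative settings and lost without each of the 4 libraries (adjusted p from 0.12 to 0.23). In CAKI-1 it had 363 and 315 with and 233 and 292 without (0.37, adjusted p = 0.11). TECR, the last reductase of the elongation cycle, and ACSL3 rose in 769-P by 0.96 each and in CAKI-1 by 0.49 and 0.67. HACD2, the elongation cycle dehydratase, also rose in both (0.44 and 0.68). ELOVL7 (-0.49) and ELOVL1 (-0.17) fell in 769-P, and ELOVL2 rose in CAKI-1 (0.76). A difference between the lines was called for ELOVL7 (-0.49, limma interaction adjusted p = 0.022) and not for ELOVL1 or ELOVL2. ELOVL3 had 10.7 and 5.83 with BCAA and 0 and 1.29 without in CAKI-1, and its call (adjusted p = 0.048) was kept under 4 of 11 alternative settings, over which the log2 fold change ran from 0.77 to 4.43.

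Of 10 genes of citrate and NADPH supply, 5 rose and 2 fell in 769-P and 1 rose and 2 fell in CAKI-1. The falls in 769-P (20% of the list) and the rise in CAKI-1 (10%) are near the 18.2% and 10.8% of all genes tested. IDH2, the mitochondrial NADP-dependent isocitrate dehydrogenase, rose in both, by 1.20 (5598 and 5920 with BCAA against 2435 and 2577) and 0.60 (1006 and 1050 against 681 and 674; limma adjusted p = 8e-09 and 5e-04). The citrate carrier SLC25A1 (0.62) and PGD (0.53), an NADPH source of the pentose phosphate pathway, rose in 769-P, where cytosolic IDH1 fell (-0.43). PGLS, the lactonase of the same pathway, fell in both lines (-0.68 and -0.52), while TKT, the transketolase, rose in 769-P (0.40, adjusted p = 9.3e-06) and fell in CAKI-1 (-0.28, adjusted p = 0.0042), a difference of 0.68 that was called (adjusted p = 9.6e-06). In the cholesterol synthesis list, 17 of 19 genes (89.5%) rose in 769-P and 8 of 19 (42.1%) in CAKI-1. Of all genes tested, 20.3% and 10.8% rose. In either line 0 of the list were lower, and the medians were 0.90 and 0.27. Of these 19, 14 (73.7%) were called further up in 769-P and 0 further down. Of genes tested in both lines, 10.9% were called further up and 10.1% further down. HMGCS1, which makes HMG-CoA, went from 1211 and 1187 to 3896 and 4111 with BCAA in 769-P (1.74, adjusted p = 7.5e-10). ACAT2 (1.53) and IDI1 (1.47), the isomerase that makes dimethylallyl diphosphate, followed it there. In CAKI-1, ACAT2 (0.75), EBP (0.74) and IDI1 (0.70) rose most of the list, and EBP rose in 769-P as well (1.34). Exons of other genes cover 69.7% of the exonic bases of ACAT2. This list was already known to have risen in these data when it was set beside the enzymes.

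**Figure D4:**
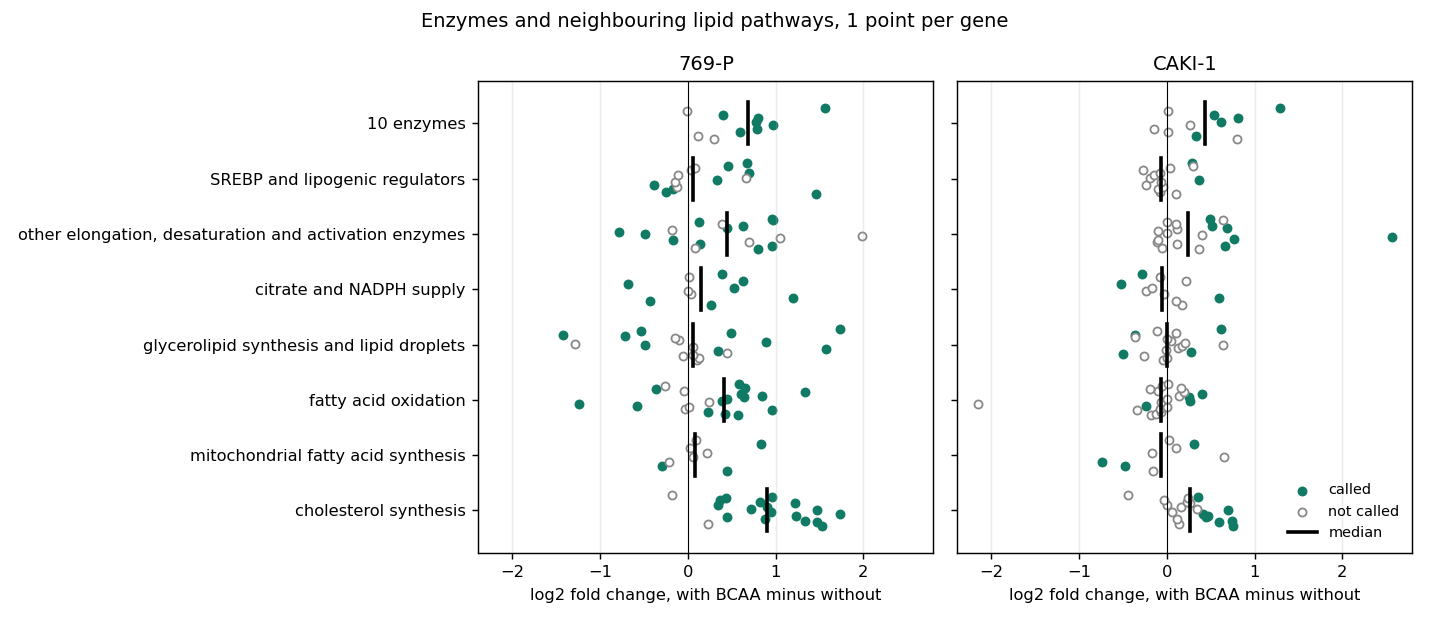
Log2 fold change with BCAA minus without for the 10 enzymes and 7 neighbouring gene lists, 769-P on the left and CAKI-1 on the right. A point is a gene, filled where called at a limma adjusted p under 0.05, and the bar is the list's median. The 10 enzymes, ACACA with its few reads included, have medians of 0.68 and 0.43, and the cholesterol list has 0.90 and 0.27.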

How the data were processed

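RNA-seq of 769-P and CAKI-1 cells with or without BCAA was taken from 8 libraries, grouped by the line and treatment in their labels, and all 8 value columns matched 1 library each. The signal in the deposited tables, 1 per line, is each gene's read count over the library's size factor. The submitters' processing notes name hg38, Trim Galore, TopHat2 2.1.0, SAMtools 1.3.1, HTSeq 0.6.0, DESeq and DESeq2, without roles, annotation or strand setting. All values (100%) were whole reads within 0.01 once multiplied by the size factor, which equalled the median-of-ratios factor of the table. Symbols, positions and lengths came from GENCODE 29 (GRCh38), which named 25032 of 25431 identifiers in 769-P and 23881 of 24190 in CAKI-1.

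The test was limma 3.58.1 in R 4.3.3 (lmFit, then eBayes with trend), fitted within each line to log2(value + 1) of the genes whose mean was 1 or more, with Benjamini-Hochberg adjustment at 0.05. Fold changes are on that scale, which understates those of low genes. The difference between the lines was the interaction term over 8 libraries, for genes tested in both tables. The fits were tested first on simulated counts, with a log2 change of 1 given to 200 genes in each line. They recovered 80% of these in 769-P, 79% in CAKI-1, and 69.2% of the 389 genes whose effect differed between the lines. False calls numbered 1, 16 and 30. Alternatives were other pseudocounts, filters, scalings and thresholds, the recovered reads under edgeR 4.0.16 and under DESeq2 1.42.0, thinned reads, a spread from all 8 libraries, a replicate block and each library left out.

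The 10 enzymes and the other lists were chosen with earlier results of these data known. All 10 enzymes are named, with SREBF1, SREBF2, INSIG1, SCD5, ACACB and FADS3, up to 3 of the called genes with the largest rise and 3 with the largest fall in each line from each other list, and the 5 genes most like the enzymes. THRSP, ACSL6, CA9, CD3E and CDH5 were listed for neither line, so they were not analysed here. Some genes of the other lists are not reported here, and the counts leave them out.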

Additional observations from a re-analysis of the deposited data

Results flagged for a closer look

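For 4 of the 10 enzymes the BCAA effect differed between 769-P and CAKI-1 by the limma interaction test, 3 further up in 769-P and 1 further down. Of the 19406 genes tested in both lines, 10.9% were called further up in 769-P and 10.1% further down, so the 1 further down is near the background. The log2 fold change of ELOVL5 was 0.93 larger in 769-P (0.78 against -0.15), that of ELOVL6 0.71 larger (0.98 against 0.27), and that of ACSS2 0.58 larger (0.59 against 0.01). That of ACLY was smaller in 769-P, by -0.22 (0.11 against 0.33), with an adjusted p of 0.049. The ELOVL5 libraries did not overlap in either line, but its lower values with BCAA in CAKI-1 were not called (adjusted p = 0.09). In 769-P the libraries with BCAA were also the deeper ones. The 4 differences were called again in 1 random thinning of the reads, and the part of depth was not tested further. Over 13 alternative settings, thinning among them, the call was kept under 13 for ELOVL5 and for ELOVL6, 11 for ACSS2 and 3 for ACLY. The lines were maintained in different media per the labels, and line and maintenance medium cannot be told apart.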

How the results depend on the processing

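With 2 libraries a group, the calls lean on a shared estimate of the spread. The number of enzymes called higher was 6 to 8 in 769-P over 14 alternative settings and 3 to 6 in CAKI-1, the 3 arising where a fold change of at least 1.5 was required. With a library left out fewer of the enzymes, and fewer of all genes tested, were called in 769-P. In CAKI-1 the calls of all the enzymes were lost whichever library it was, as were those of all genes tested. The number called lower was 1 (ELOVL5) in CAKI-1 with the spread from all 8 libraries, and 0 under every other setting and in 769-P. Differences called further up in 769-P numbered 2 to 3 over 13 settings and 2 to 4 with a library left out. The 1 difference further down (ACLY) fell to 0 with a pseudocount of 0.1 or 10, no filter, median centering, quantile normalization, TMM, edgeR, the replicate block, a fold change of at least 1.5 or an adjusted p under 0.01, and ranged from 0 to 1 with a library left out. The cause of these losses was not tested.

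Directions turned for values near 0 and not called. In 769-P, ME1 was 0.038 with median centering, 0.022 with TMM and 0.020 with edgeR, and -0.030 to 0.025 with a library left out. In CAKI-1, ME1 was -0.034 with quantile normalization and -0.0017 with edgeR, and -0.037 to 0.062 with a library left out, and ACSS2 was -0.0002 with edgeR and -0.0029 with thinned reads. The difference between the lines for ME1 was 0.021 with TMM and -0.065 to 0.034 with a library left out. For FADS2 it was 0.019 with TMM, 0.0093 with edgeR and 0.0054 with DESeq2, and -0.15 to 0.12 with a library left out. Left-out libraries moved FADS3 in CAKI-1 from -0.25 to 0.051 and the SREBF1 difference from -0.043 to 0.37. Replicate numbers did not pair the libraries (same-number correlations of -0.088 in 769-P and 0.061 in CAKI-1 over 11855 and 11720 genes). With the replicate block 7 and 5 enzymes were called higher, 0 lower, 3 differences further up and 0 further down. Among other genes named as called in CAKI-1, the calls of GPAM, NDUFAB1 and ETFDH were kept under 8, 9 and 10 of 14 settings. Of those named as called in 769-P, INSIG2 and GPAM were kept under 12 of 14, and MBTPS1, ELOVL1 and CPT1B under 11.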

Other observations

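Genes of lipid storage and fatty acid use, downstream of the enzymes, were also measured. Of 18 glycerolipid and lipid droplet genes tested in 769-P, 5 rose and 4 fell, and of 17 in CAKI-1, 2 rose and 2 fell. These shares (27.8% and 22.2%, and 11.8% each) are near those of all genes tested, 20.3% and 18.2% in 769-P and 10.8% and 9.05% in CAKI-1. PLIN2, the lipid droplet coat protein, was counted at 2965 and 3049 with BCAA and 7927 and 8230 without in 769-P (log2 fold change -1.43, limma adjusted p = 7.8e-10), and at 1919 and 2499 with and 2867 and 2756 without in CAKI-1 (-0.36, adjusted p = 0.030). The fall in CAKI-1 was called under 8 of 14 alternative settings (adjusted p up to 0.12), and was -0.17 without BCAA replicate 1 and -0.55 without BCAA replicate 2, neither of them called. PNPLA3, a droplet lipase homologue and known SREBP target, rose in both, by 1.73 (190 and 207 against 70.8 and 48.9) and 0.62 (322 and 293 against 182 and 220). In 769-P the acyltransferase GPAT3 (1.58) and the phosphatidate phosphatase LPIN1 (0.89) rose, while the lipases MGLL (-0.71) and PNPLA2 (-0.53) fell. The acyltransferase GPAM rose in both lines (0.35 and 0.28), and DGAT2 fell in CAKI-1 (-0.50).

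Of 20 fatty acid oxidation genes, 12 rose and 3 fell in 769-P, and 3 rose and 1 fell in CAKI-1, or 60% and 15% of the list, and 15% and 5%, beside 20.3% and 18.2%, and 10.8% and 9.05%, of all genes tested. CPT1A, which admits fatty acids to mitochondria, fell in both lines (-0.57 and -0.23, limma adjusted p = 1.2e-05 and 0.035), the call in CAKI-1 being kept under 8 of 14 alternative settings (adjusted p up to 0.098). In 769-P, HADH (1.33), ACADS (0.96) and ETFB (0.84), which act within mitochondria, rose, and HADHB (-0.36) and CPT1B (-1.23) fell, the last with 66.4% of its exonic bases under a readthrough gene. ETFDH (0.61 and 0.40), ECHS1 (0.39 and 0.26) and ETFA (0.64 and 0.25) rose in both lines. Of 8 genes of mitochondrial fatty acid synthesis, 2 rose and 1 fell in 769-P (25% and 12.5%, near the shares of all genes) and 1 rose and 2 fell in CAKI-1 (12.5% and 25%). NDUFAB1, the acyl carrier protein, rose in both (0.83 and 0.31) and LIAS, the lipoate synthase, fell in both (-0.30 and -0.48), with CBR4 (0.45) higher in 769-P and LIPT1 (-0.74) lower in CAKI-1.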
